A study of Mus musculus with 8 samples.

Results

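The ion channels, aquaporins and ATP-driven ion pumps of the mouse kidney were compared between cisplatin-treated and control animals by bulk RNA-seq. The genes were those protein-coding rows of the deposited count table, holding 1 count for each of the 8 libraries, whose symbols begin as the families of aquaporins, epithelial sodium channel subunits, potassium channels, chloride channels with barttin, Trp channels, FXYD proteins, sodium pump subunits, calcium pumps and voltage-gated calcium channels. There were 93 such genes among 12286 protein-coding genes with 8 counts. Another 98 genes of the same families stand in rows with 10 values and were not analysed here, among them all 10 chloride channel and barttin genes, Kcnj1, Scnn1b, Scnn1g, Aqp6, Fxyd5 and Trpm7. The 93 comprised 8 aquaporins, 1 sodium channel subunit, 46 potassium channel genes, 13 genes with Trp symbols, 3 FXYD genes, 3 sodium pump subunits, 7 calcium pumps and 12 calcium channel subunits. Trpc4ap and Trpc5os carry the symbol prefix but do not encode channels.

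Wild-type kidneys were sampled from 4 saline-injected controls and from 4 mice given a single intraperitoneal dose of cisplatin, which the methods of the study give as 23 mg/kg, and all kidneys were collected at 72 h. The methods name male C57/BL6J mice, and no age is stated. Cisplatin is a platinum drug that is taken up by the proximal tubule and injures it. The labels number the controls 1, 2, 3 and 5 and the cisplatin-treated mice 1, 3, 4 and 6, and values listed below follow that order.

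The sodium pump, a complex of an alpha and a beta subunit with an FXYD protein, sits in the basolateral membrane of every tubule cell and keeps sodium low inside the cell. Apical channels and transporters use that gradient, and potassium channels return the potassium that the pump brings in. Aquaporins let water cross the cell, constitutively in the proximal tubule and under vasopressin in the principal cells of the collecting duct. Calcium leaves distal cells through plasma membrane calcium pumps after entering by Trpv5.

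Over the rows used, total counts ran from 13539665 to 16201443 in the controls and from 10953338 to 16701599 after cisplatin. These totals cover part of each library. Levels are CPM, counts scaled to a common library size with TMM factors (trimmed mean of M values), and 3 counts, taken as the smallest measurable level, equalled at most 0.266 CPM in a control and 0.238 CPM in a cisplatin library, counting error only. The first principal component of all tested genes held 73.55% of the variance and divided the groups, and the second held 15.96% and set control 5 with cisplatin 4 and 6 apart from the other libraries. Cisplatin 1 and 3 had 0 to 3 counts of the Y-linked genes Kdm5d and Eif2s3y, against 274 to 1333 in the other 6 libraries, which goes against the stated sex of the mice. The counts of called genes are also given without these 2 libraries. So are the values of many, not all, genes named below in which the treated kidneys split into these pairs. Such fits compare cisplatin 4 and 6, which lay with control 5 on the second component, with all controls. In them treatment and the division along that component are therefore partly confounded. A whole kidney was measured, so fewer cells of a type and less RNA per cell cannot be told apart.

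Of the 93 genes, 75 passed the expression filter. Among them, 21 were down-regulated and 11 up-regulated, taking adjusted p values below 0.05 and changes of 2-fold or more (edgeR quasi-likelihood test, Benjamini-Hochberg adjustment). That is 32 called genes, or 42.7%, against 34.9% of all genes tested. The down-regulated share was 28.0%, where 15.7% of all 9141 genes tested were down-regulated. The up-regulated share was 14.7%, against 19.2% of all genes tested. The 15.7% and 19.2% of all genes also stand beside the counts of calls by segment or cell list given below. The median log2 fold change was -0.24 over the 75 genes and 0.08 over all genes tested. At any fold, 34 passed the adjusted p, where 49.1% did of all genes tested. The ranges of the groups did not overlap in 33 of the 75 genes, where this held for 46.3% of all genes tested. Without cisplatin 1 and 3, 28 genes were down-regulated and 11 up-regulated, in a fit that called 20.5% of all genes lower and 21.4% higher. Within control 1, 2 and 3 and cisplatin 1 and 3 alone, the counts were 20 and 12. That fit called 16.3% of all genes lower and 17.6% higher. In it the treated libraries had 0 to 3 counts of each Y-linked gene and the controls 274 to 1333. Treatment and that difference are therefore confounded there. The split of the calls depended on the scaling: when libraries were scaled by their totals and not by TMM, which raised the median of all genes by 0.57 on the log2 scale, 13 genes were down-regulated and 16 up-regulated, where 8.78% of all genes were down-regulated and 34.7% up-regulated. In that fit all 21 down-regulated genes kept a negative log2 fold change.

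**Figure D1:**
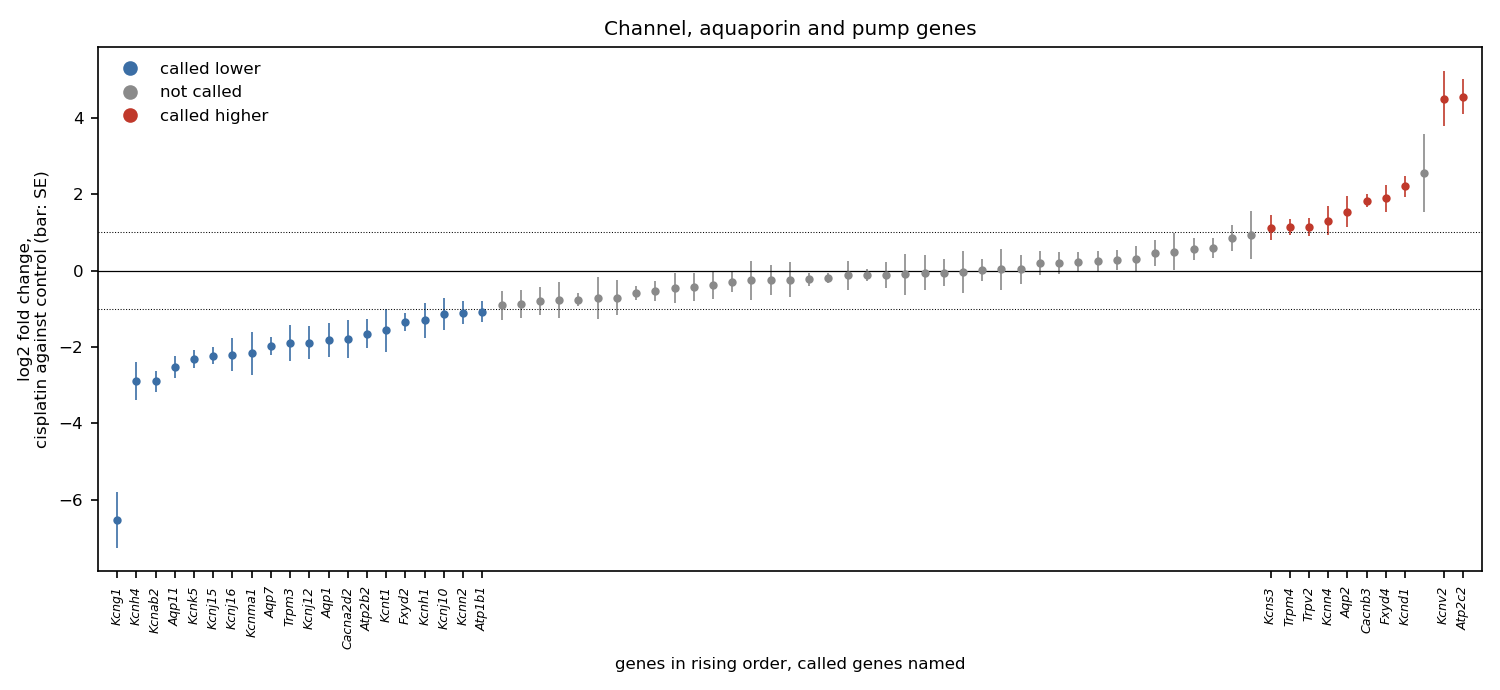
Log2 fold change of cisplatin-treated against control kidneys (vertical axis, bars are SE) for 71 of the tested genes in rising order along the horizontal axis, with dotted lines at -1 and 1 and the called genes named. The order starts with Kcng1 at -6.52, and 20 of these genes were called lower (blue) and 10 higher (red).

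Levels were compared between genes per length. In controls, mean CPM per kilobase of annotated gene length was 1248 ± 111 for Atp1b1, 637 ± 146 for Fxyd2, 585 ± 294 for Aqp1, 327 ± 34.98 for Kcnj15 and 267 ± 20.99 for Kcnj16 (SD, n = 4). The levels of Fxyd2 and Aqp1 differed by less than their spread. Aqp2 came after Kcnj16 in controls, at 153 ± 90.2 CPM per kilobase, and had 443 ± 151 CPM per kilobase after cisplatin (SD, n = 4).

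Most measured water and potassium channels of the proximal tubule fell. Of the 8 genes listed for this segment 7 had a usable row, 5 were down-regulated and none was up-regulated, with a median log2 fold change of -1.98. Kcnj15, an inwardly rectifying potassium channel (ENSMUSG00000062609, chromosome 16 from 95257558 to 95300260 of GRCm38), was the most abundant of them, at 2297, 2127, 2455 and 1907 CPM in the controls and 313, 578, 494 and 494 CPM after cisplatin. Every treated kidney lay far below every control. The decrease was 4.67-fold, with a log2 fold change of -2.22 (SE 0.23, edgeR adjusted p = 5.15e-05). An antisense-strand gene shares exon bases with Kcnj15, and whether the counting used strand is not given in the sources used here. Kcnk5, the two-pore channel TASK2 that recycles potassium across the basolateral membrane (ENSMUSG00000023243, chromosome 14 from 20140057 to 20181809), had 409.6, 318, 409 and 391 CPM in controls and 45.6, 85.95, 87.2 and 88.02 CPM after cisplatin. It was 4.98-fold lower, with a log2 fold change of -2.32 (SE 0.23, edgeR adjusted p = 4.73e-05).

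All 3 aquaporins of this segment that were measured were down-regulated. Aqp1, the constitutive water channel of the proximal tubule and thin descending limb (ENSMUSG00000004655, chromosome 6 from 55336432 to 55348555), had 1287, 1358, 857 and 2648 CPM in controls and 487, 171, 616 and 469 CPM after cisplatin. Controls varied widely, with control 5 highest, and still did not overlap the treated kidneys. The decrease was 3.53-fold, with a log2 fold change of -1.82 (SE 0.44, edgeR adjusted p = 0.00685). Aqp11, an intracellular aquaporin of the proximal tubule (ENSMUSG00000042797, chromosome 7 from 97724006 to 97738289), varied little among controls, at 106, 101, 103 and 95.3 CPM, against 9.55, 13.4, 22.99 and 25.1 CPM after cisplatin. Its decrease of 5.73-fold was the largest of the aquaporins, with a log2 fold change of -2.52 (SE 0.29, edgeR adjusted p = 0.000115). Aqp7, which carries glycerol as well as water in the straight proximal tubule, had 70.1, 80.9, 51.6 and 53.2 CPM in controls and 11.8, 14.96, 21.7 and 16.4 CPM after cisplatin, a log2 fold change of -1.98 (SE 0.23, edgeR adjusted p = 0.00012).

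The other genes of the proximal list, Kcnq1 and its accessory subunit Kcne1, were not called. Kcnq1 had 43.8, 44.6, 59.8 and 58.03 CPM in controls and 78.05, 84.1, 48.2 and 39.6 CPM after cisplatin (log2 fold change 0.28, adjusted p = 0.389). Kcne1 had 39.6, 34.2, 48.2 and 32.2 CPM and 45.2, 52.4, 16.5 and 15.9 CPM (log2 fold change -0.24, adjusted p = 0.634). In both genes cisplatin 1 and 3 lay above cisplatin 4 and 6, and the groups overlapped. Without cisplatin 1 and 3, Kcnq1 was at -0.22 (adjusted p = 0.335) and Kcne1 was down-regulated, at -1.24 (adjusted p = 0.00167). With total library size in place of TMM, Kcnq1 was at 0.87 (adjusted p = 0.0217), under 2-fold. Kcnq1 shares exon bases with the antisense transcript Kcnq1ot1.

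The 10 marker genes of proximal tubule cells outside these families were all down-regulated, with a median log2 fold change of -4.54, and their summed level ran from 22000 to 29520 CPM in controls and from 484 to 1519 CPM after cisplatin. The channels fell less than these markers. The log2 ratio of Kcnj15 to the mean of the markers within a library rose by 2.88, that of Kcnk5 by 2.78 and that of Aqp1 by 3.29. For each ratio the groups did not overlap and the exact permutation test (2-sided, 4 against 4) gave p = 0.0286, the smallest value this design can give, or 0.0440 after adjustment over the 20 ratios computed.

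The upstream 250 bases of Kcnj15, and of Aqp2 and Fxyd4, which moved the other way, are shown to set a strongly down-regulated promoter beside the up-regulated pair. They come from RefSeq promoters of GRCm38.p6, which covered 66 of the 93 genes, and capitals mark matches on either strand to any of 5 strings. They are the HNF1 half-site GTTAAT, the cAMP response element half-site ACGTCA and the AP-1 site TGANTCA. The others are the core promoter box TATAA and, as read on the strand opposite to its usual form, the site of GATA factors, TTATCT. The cAMP response element, TATA and GATA letters were chosen after the Aqp2 sequence had been seen.
Kcnj15, GRCm38.p6 chr16:95257308-95257557, + strand: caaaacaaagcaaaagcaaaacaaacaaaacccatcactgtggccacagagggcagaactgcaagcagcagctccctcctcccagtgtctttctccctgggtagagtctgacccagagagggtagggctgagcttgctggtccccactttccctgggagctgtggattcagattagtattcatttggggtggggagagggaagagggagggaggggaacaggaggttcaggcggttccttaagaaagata
Aqp2, GRCm38.p6 chr15:99578806-99579055, + strand: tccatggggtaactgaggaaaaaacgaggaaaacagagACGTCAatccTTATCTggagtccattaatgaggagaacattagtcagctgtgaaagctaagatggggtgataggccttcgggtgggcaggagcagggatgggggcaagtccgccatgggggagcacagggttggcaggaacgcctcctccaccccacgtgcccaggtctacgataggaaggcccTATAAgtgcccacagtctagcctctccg
Fxyd4, GRCm38.p6 chr6:117937336-117937585, - strand: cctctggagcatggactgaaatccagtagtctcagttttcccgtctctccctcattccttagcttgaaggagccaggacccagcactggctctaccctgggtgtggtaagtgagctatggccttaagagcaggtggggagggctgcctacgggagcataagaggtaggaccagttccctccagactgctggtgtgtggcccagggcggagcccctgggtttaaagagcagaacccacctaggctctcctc
In Aqp2 the cAMP response element letters lie 212 to 207 bases, the GATA letters 202 to 197 bases and the TATA letters 28 to 24 bases before the start. None of the 5 strings occurs in the windows of Kcnj15 and Fxyd4, and the RefSeq start of Fxyd4 lies 357 bases inside the gene as the count table has it. ACGTCA occurs in 6.47% of the 32851 promoters, TTATCT in 9.99%, TATAA in 22.8%, GTTAAT in 6.43% and TGANTCA in 6.75%. Of the 16 down-regulated genes with a promoter entry, 1 had ACGTCA and 1 had GTTAAT, and of the 6 up-regulated genes 1 had each. These are matches of letters only.

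Atp1b1, the beta subunit of the sodium pump (ENSMUSG00000026576, chromosome 1 from 164437109 to 164458355), was lower after cisplatin, with 4018, 4013, 4015 and 3331 CPM in controls and 2476, 2171, 1539.8 and 1096 CPM after cisplatin. Every treated kidney lay below every control, with a log2 fold change of -1.08 (SE 0.27, edgeR adjusted p = 0.00811). Atp1b1 shares exon bases with Nme7 on the opposite strand. Within control 1, 2 and 3 and cisplatin 1 and 3 alone, the decrease was under 2-fold, at -0.85 (adjusted p = 0.00157). That fit confounds treatment with the difference in Y-linked counts. The decrease was also under 2-fold without cisplatin 6 (-0.90). Without cisplatin 1 and 3, Atp1b1 was at -1.54 (adjusted p = 0.00071). With total library size in place of TMM it was -0.49 (adjusted p = 0.169).

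The FXYD partners of the pump moved apart. Fxyd2, the gamma subunit of proximal and distal tubules (ENSMUSG00000059412, chromosome 9 from 45399669 to 45410278), had 2331, 1994, 2518 and 3369 CPM in controls and 1157, 1105, 1013 and 714 CPM after cisplatin. It was 2.56-fold lower, with a log2 fold change of -1.36 (SE 0.24, edgeR adjusted p = 0.00116). Fxyd4, the corticosteroid-induced partner of the collecting duct (ENSMUSG00000004988, chromosome 6 from 117933559 to 117937692), had 18.3, 15.9, 20.2 and 47.6 CPM in controls and 85.6, 77.8, 124 and 89.3 CPM after cisplatin. Control 5 stood well above the other controls and below every treated kidney, and the increase was 3.69-fold, with a log2 fold change of 1.88 (SE 0.35, edgeR adjusted p = 0.00167). Fxyd1, phospholemman, was not called, at 6.38, 6.38, 3.64 and 5.19 CPM and 8.41, 8.85, 6.15 and 9.04 CPM (log2 fold change 0.59, adjusted p = 0.09).

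In the distal convoluted tubule list 3 of the 4 genes with a usable row, Kcnj16, Kcnj10 and Fxyd2, were down-regulated. Kcnj16, which forms the basolateral channel of the distal convoluted tubule together with Kcnj10 (ENSMUSG00000051497, chromosome 11 from 110968033 to 111027968), had 1092, 986, 1147 and 977 CPM in controls and 357, 346, 111 and 101 CPM after cisplatin. It was 4.59-fold lower, with a log2 fold change of -2.20 (SE 0.42, edgeR adjusted p = 0.00215). Kcnj10 (ENSMUSG00000044708, chromosome 1 from 172341210 to 172374085) had 152, 152, 184 and 143 CPM in controls and 124, 94.8, 40.8 and 27.6 CPM after cisplatin, a log2 fold change of -1.13 (SE 0.41, edgeR adjusted p = 0.0431). The groups did not overlap in either gene, and cisplatin 4 and 6 were lower than cisplatin 1 and 3 in both. The call of Kcnj10 was lost when any 1 of the 4 controls or cisplatin 4 or 6 was left out, with adjusted p from 0.0611 to 0.0997. Without cisplatin 1 and 3 the log2 fold change was -3.30 (adjusted p = 1.39e-05) for Kcnj16 and -2.19 (adjusted p = 0.000145) for Kcnj10. Over the whole kidney Kcnj16, with a control mean of 1050 CPM, fell more than Kcnj10, with a control mean of 158 CPM. The log2 ratio of Kcnj16 to Kcnj10 dropped from 2.74 ± 0.09 to 1.67 ± 0.22 (SD, n = 4, exact permutation p = 0.0286, adjusted p = 0.0440). The segments that the RNA of either gene came from cannot be told from whole kidneys.

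Kcnt1, a sodium-activated potassium channel and the only gene of the thick limb list with a usable row, had 38.5, 45.8, 37.8 and 69.98 CPM in controls and 27.2, 19.5, 15.8 and 2.22 CPM after cisplatin, a log2 fold change of -1.56 (SE 0.56, edgeR adjusted p = 0.0413). The call was lost when any 1 control, cisplatin 3 or cisplatin 4 was left out, with adjusted p from 0.0546 to 0.0978. Without cisplatin 1 and 3 it was -2.38 (adjusted p = 0.0178). Trpm6, the apical magnesium channel of the distal convoluted tubule, had 20.01, 22.7, 30.6 and 20.8 CPM and 16.9, 23.5, 10.6 and 13.8 CPM and was not called (log2 fold change -0.53, adjusted p = 0.117). Without cisplatin 1 and 3, Trpm6 was at -0.94 (edgeR adjusted p = 0.0101), under 2-fold. The 3 marker genes of the distal convoluted tubule differed, at -3.36 for Slc12a3, -1.82 for Cnnm2 and -0.78 for Wnk4, which was not called. Against their mean the log2 ratio of Trpm6 rose by 1.51 (exact permutation p = 0.0286, adjusted p = 0.0440). The ratio of Kcnj10 to the same markers rose by 0.70 with the groups overlapping (exact permutation p = 0.0571).

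Among genes that regulate or share the work of these channels, 16 of the 21 listed had a usable row, 9 were down-regulated and none up-regulated, with a median log2 fold change of -1.47. They included Slc12a3, the thiazide-sensitive sodium chloride cotransporter (log2 fold change -3.36), Wnk1, a kinase that controls it (-1.41), and Nr3c2, the mineralocorticoid receptor (-1.05). Slc12a1, the sodium potassium chloride cotransporter of the thick limb, had a log2 fold change of -1.78 and was not called (adjusted p = 0.0602). Nedd4l, the ubiquitin ligase of the epithelial sodium channel, was not called either (-0.45, adjusted p = 0.123). Egf, Slc12a1, Slc12a3, Wnk4, Calb1, S100g, Slc8a1 and Hsd11b2 of this list also serve as segment markers.

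The calcium channel and calcium pumps of the connecting tubule list, Trpv5, Atp2b1 and Atp2b4, were not called, and their 4 cisplatin-treated kidneys split into pairs. Of the other calcium-handling genes of this segment, the calcium-binding protein Calb1 (-1.54, adjusted p = 0.011) and the sodium calcium exchanger Slc8a1 (-2.27, adjusted p = 0.00356) were down-regulated, and the calcium-binding protein S100g was not called (-0.32, adjusted p = 0.573). Trpv5, the apical calcium channel (ENSMUSG00000036899, chromosome 6 from 41652173 to 41680769), had 40.6, 35.9, 50.3 and 26.8 CPM in controls and 58.1, 57.4, 13.03 and 18.6 CPM after cisplatin (log2 fold change -0.06, adjusted p = 0.929). Cisplatin 1 and 3 were above all controls and cisplatin 4 and 6 below all of them. Atp2b1, a plasma membrane calcium pump, followed the same order, with 133, 123, 158 and 90.97 CPM and 177, 163, 60.2 and 60.7 CPM (log2 fold change -0.13, adjusted p = 0.796). Atp2b4 had 50.3, 48.4, 53.1 and 38.2 CPM and 42.9, 48.3, 9.37 and 15.3 CPM (log2 fold change -0.71, adjusted p = 0.221), so that only cisplatin 4 and 6 were below the controls. Without cisplatin 1 and 3, all 3 were down-regulated, at -1.27 for Trpv5 (adjusted p = 0.00631), -1.06 for Atp2b1 (adjusted p = 0.00526) and -1.94 for Atp2b4 (adjusted p = 0.000477). Control 5, which lay with cisplatin 4 and 6 on the second principal component, was the lowest control for all 3 genes. The log2 ratio of Atp2b4 to Atp2b1 fell by 0.70 (exact permutation p = 0.0286, adjusted p = 0.0440).

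Of 6 collecting duct genes with a usable row, 2 were up-regulated and 1 down-regulated, where 19.2% and 15.7% of all genes tested were. The vasopressin-regulated water channel rose while the other aquaporins of the same cells were not called. Aqp2, the apical water channel of principal cells (ENSMUSG00000023013, chromosome 15 from 99579055 to 99584547), had 132, 175, 153 and 407 CPM in controls and 789.8, 639, 763 and 323 CPM after cisplatin. Control 5 lay above cisplatin 6, so the groups overlapped. The increase was 2.90-fold, with a log2 fold change of 1.54 (SE 0.40, edgeR adjusted p = 0.0109). Aqp3, in the basolateral membrane of the same cells, had 197, 208, 205 and 248 CPM and 246, 198, 175 and 169 CPM (log2 fold change -0.12, adjusted p = 0.56). Aqp4, the other basolateral water channel, had 43.8, 54.2, 20.9 and 64.6 CPM and 59.5, 86.4, 27.7 and 13.1 CPM (log2 fold change 0.03, adjusted p = 0.972). The spread of Aqp4 among the treated kidneys was wider than the difference between the group means, and without cisplatin 1 and 3 the log2 fold change was -1.15 (adjusted p = 0.07). With total library size in place of TMM the log2 fold change of Aqp3 was 0.46 (adjusted p = 0.0544).

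Within libraries, the log2 ratio of Aqp3 to Aqp2 changed from 0.14 ± 0.58 in controls to -1.61 ± 0.49 after cisplatin, and that of Aqp4 to Aqp2 from -2.18 ± 0.65 to -3.98 ± 0.86 (SD, n = 4). Neither ratio overlapped between the groups, although the Aqp4 ratio of cisplatin 3, at -2.88, lay close to that of control 3, at -2.84 (exact permutation p = 0.0286, adjusted p = 0.0440 each). Against 3 principal cell markers, Hsd11b2, Gata3 and Tfcp2l1, the ratio of Aqp2 rose by 1.96 and that of Fxyd4 by 2.34, both with the same p. The ratio of Aqp3 to these markers changed by 0.22 (exact permutation p = 0.543). None of the 3 markers was called, and their summed level ran from 831 to 1074 CPM in controls and from 391 to 1006 CPM after cisplatin.

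Scnn1a, the alpha subunit of the epithelial sodium channel (ENSMUSG00000030340, chromosome 6 from 125320659 to 125344943), had 339, 328, 382 and 349.5 CPM in controls and 505, 539, 361 and 221 CPM after cisplatin and was not called (log2 fold change 0.22, adjusted p = 0.515). The treated kidneys lay on both sides of the controls, with cisplatin 1 and 3 above and cisplatin 6 below, and without cisplatin 1 and 3 the log2 fold change was -0.26 (adjusted p = 0.327). With total library size in place of TMM, Scnn1a was at 0.80 (adjusted p = 0.0328), under 2-fold. Kcnma1, the large-conductance calcium-activated potassium channel of flow-stimulated potassium secretion, had 5.93, 8.85, 3.11 and 4.95 CPM and 2.23, 1.76, 0.439 and 0.476 CPM and was down-regulated, a log2 fold change of -2.17 (SE 0.56, edgeR adjusted p = 0.00956), and without cisplatin 1 and 3 the change was -3.61 (adjusted p = 0.00108).

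**Figure D2:**
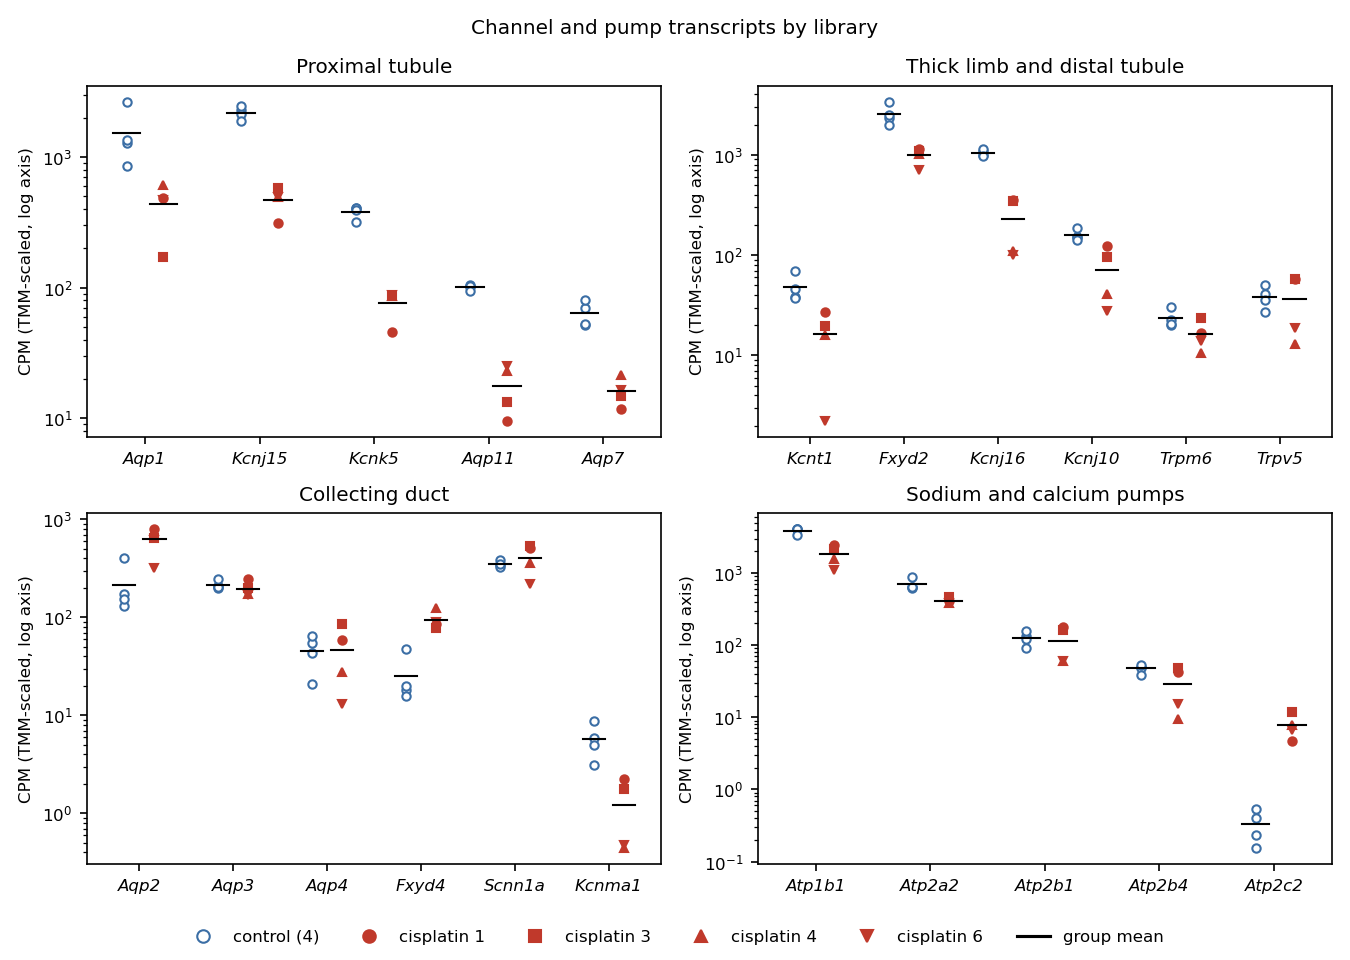
TMM-scaled CPM on a log axis for 22 genes in 4 panels, with open blue circles for the 4 controls, red symbols for each cisplatin-treated kidney and black bars for group means. The 5 proximal genes are lower in every treated kidney, Fxyd4 is higher in every treated kidney, and in Kcnj16, Kcnj10, Trpv5, Atp2b1 and Atp2b4 the triangles of cisplatin 4 and 6 lie below cisplatin 1 and 3.

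The pumps that fill intracellular calcium stores changed less in their abundant forms. Atp2a2, the SERCA2 pump of the endoplasmic reticulum, had 639, 627, 640.1 and 867 CPM in controls and 407, 461, 389 and 379 CPM after cisplatin. It was lower in every treated kidney but under 2-fold (log2 fold change -0.76, adjusted p = 0.00456). Atp2c1, the Golgi calcium and manganese pump, was 135 ± 5.45 CPM in controls and 89.2 ± 22.3 CPM after cisplatin (SD, n = 4), likewise under 2-fold (log2 fold change -0.60, adjusted p = 0.0212). With total library size in place of TMM, Atp2a2 was at -0.19 (adjusted p = 0.354) and Atp2c1 at -0.02 (adjusted p = 0.955). Without cisplatin 1 and 3, Atp2c1 was at -0.90 (adjusted p = 0.000702). Its relative Atp2c2 (ENSMUSG00000034112, chromosome 8 from 119700009 to 119757717) went the other way, from 0.531, 0.399, 0.152 and 0.236 CPM to 4.64, 11.9, 7.91 and 6.74 CPM. That was a log2 fold change of 4.55 (SE 0.47, edgeR adjusted p = 5.50e-05), 23.4-fold, with controls near the detection limit. Atp2a3 had 40.03, 46.5, 31.6 and 37.7 CPM and 34.7, 29.5, 29.4 and 39.4 CPM and was not called (adjusted p = 0.298). Atp2b2 was down-regulated, from 8.24, 6.70, 7.74 and 7.31 CPM to 3.32, 3.57, 1.17 and 1.35 CPM, a log2 fold change of -1.65 (SE 0.39, edgeR adjusted p = 0.0062), and without cisplatin 1 and 3 the change was -2.56 (adjusted p = 0.000248).

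Other down-regulated potassium channel genes were of low abundance. Kcng1, a modifier subunit of voltage-gated channels (ENSMUSG00000074575, chromosome 2 from 168260117 to 168281736), had 16.6, 17.3, 5.31 and 10.4 CPM in controls and 0.0455, 0, 0.220 and 0.317 CPM after cisplatin. It was all but lost, with 1, 0, 3 and 4 counts in the treated kidneys against 70 to 217 in the controls, and its log2 fold change of -6.52 (SE 0.73, edgeR adjusted p = 9.51e-05) was the lowest of the 75 genes. Kcnab2, a cytoplasmic beta subunit of voltage-gated channels, had 8.77, 7.50, 9.40 and 6.05 CPM and 1.09, 1.15, 0.878 and 1.11 CPM, a log2 fold change of -2.89 (SE 0.27, edgeR adjusted p = 3.39e-05). Another annotated gene shares exon bases with Kcnab2 on the same strand. Kcnh4 (-2.90), Kcnj12 (-1.88), Kcnh1 (-1.30) and Kcnn2 (-1.11) were lower with control means of 2.32 to 4.16 CPM. Of these 4 only Kcnh1 overlapped between groups, and its call was lost when control 1, 2 or 3 or cisplatin 1, 4 or 6 was left out, with adjusted p from 0.0516 to 0.0963. It was also lost without cisplatin 1 and 3 (adjusted p = 0.0574). Kcnn2 was under 2-fold without cisplatin 3 (-0.98). Trpm3 (-1.90) and the calcium channel subunit Cacna2d2 (-1.80) were down-regulated from control means of 2.76 and 1.47 CPM, and Cacna2d2 lost its call without cisplatin 1 and 3 (adjusted p = 0.082).

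The up-regulated genes outside the collecting duct were also of low or moderate level. Cacnb3, a beta subunit of voltage-gated calcium channels (ENSMUSG00000003352, chromosome 15 from 98630840 to 98644529), was the most abundant, at 13.8, 19.4, 14.9 and 15.6 CPM in controls and 62.1, 64.9, 51.4 and 48.1 CPM after cisplatin. It rose 3.55-fold with little spread, a log2 fold change of 1.83 (SE 0.18, edgeR adjusted p = 3.81e-05). Trpm4, a calcium-activated monovalent cation channel (ENSMUSG00000038260, chromosome 7 from 45302632 to 45333780), had 10.8, 11.6, 15.2 and 19.97 CPM and 34.8, 32.8, 30.1 and 29.1 CPM, a log2 fold change of 1.14 (SE 0.22, edgeR adjusted p = 0.00198). Kcnd1, a voltage-gated channel of the transient A-type current, had 1.59, 1.20, 0.910 and 1.10 CPM and 5.23, 5.88, 5.49 and 5.55 CPM, a log2 fold change of 2.20 (SE 0.27, edgeR adjusted p = 0.000161). In these 3 genes every treated kidney was above every control. Kcns3, a modifier subunit, rose from 3.54, 3.51, 4.17 and 3.07 CPM to 12.5, 7.31, 6.37 and 4.76 CPM (log2 fold change 1.12, adjusted p = 0.0181), and was no longer called without cisplatin 1 (log2 fold change 0.78) or without cisplatin 1 and 3 (0.65).

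Kcnv2, a modifier subunit of photoreceptor channels, was up-regulated from the detection limit. It had 0, 2, 0 and 1 counts in controls and 44, 39, 17 and 9 counts after cisplatin. Against a level of 3 counts in a control it was at least 5.74-fold higher (adjusted p = 0.000742).

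Of the channel genes listed for leukocytes, 4 of 7 had a usable row, 2 were up-regulated and 1, Kcnab2, was down-regulated. Of all genes tested, 19.2% were up-regulated and 15.7% down-regulated. Trpv2, a cation channel of macrophages and other cells, had 3.19, 2.95, 2.43 and 3.22 CPM in controls and 6.004, 7.04, 5.71 and 7.37 CPM after cisplatin, a log2 fold change of 1.15 (SE 0.24, edgeR adjusted p = 0.00335). Kcnn4, the intermediate-conductance calcium-activated channel of lymphocytes and macrophages, rose from 1.42, 1.36, 1.44 and 1.89 CPM to 2.27, 2.64, 3.81 and 6.50 CPM (log2 fold change 1.30, adjusted p = 0.018), and lost its call without control 2 (adjusted p = 0.0504) or cisplatin 6 (log2 fold change 0.92). Without cisplatin 1 and 3, Kcnn4 was at 1.75 (edgeR adjusted p = 0.00226). Trpm2 was not called (0.03, adjusted p = 0.952). Of 11 leukocyte markers 5 had a usable row: the neutrophil genes S100a8 (3.34) and S100a9 (2.50) and the integrin Itgam (3.07) were up-regulated, the pan-leukocyte gene Ptprc was down-regulated (-1.44) and Lyz2 was not called (-0.34). Their summed level ran from 55.2 to 99.5 CPM in controls and from 32.9 to 99.2 CPM after cisplatin, and the part of leukocytes in the rise of Trpv2 and Kcnn4 was not tested.

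In the list for podocytes and vessels, 4 genes had usable rows and none was called, Cacna1d, Cacna1h and Kcnmb1 among them. Cacna1d, an L-type calcium channel, had 21.2, 23.3, 22.5 and 20.3 CPM and 26.4, 19.96, 11.6 and 6.58 CPM (log2 fold change -0.43, adjusted p = 0.351). Without cisplatin 1 and 3 Cacna1d was down-regulated, at -1.25 (adjusted p = 0.00441). Cacna1h (0.24) and Kcnmb1 (0.49) had control means under 4 CPM. Kcnk6, listed among channels of most cells, had 3.31 ± 0.190 CPM and 3.77 ± 1.23 CPM (SD, n = 4, log2 fold change 0.19, edgeR adjusted p = 0.63). The podocyte markers Nphs1 (0.14) and Podxl (0.02) were not called, nor were the endothelial markers Ehd3 (-0.55) and Plvap (-0.09). The endothelial marker Kdr was lower in every treated kidney but under 2-fold (-0.94, edgeR adjusted p = 0.0152).

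Aqp8 had the largest increase that was not called, from 0.266, 0.319, 0.228 and 2.67 CPM in controls to 1.46, 0.770, 6.81 and 11.8 CPM after cisplatin (log2 fold change 2.54, SE 1.02, adjusted p = 0.0624). Control 5 overlapped cisplatin 1 and 3, DESeq2 called the gene (2.57, adjusted p = 0.0147), and without control 5 it was called by edgeR, at 4.19 (adjusted p = 0.0127). The other 18 of the 93 genes did not pass the expression filter. In 10 of them every library had 0 counts, and in 17 every library had fewer than 10. The exception was Kcns1, a modifier subunit, with 7, 10, 19 and 23 counts in controls and 2, 1, 3 and 3 counts after cisplatin.

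Among the 43 tested genes with a group mean of at least 5 CPM, 9 had levels in cisplatin 4 and 6 that were both under 0.5 times the lower of cisplatin 1 and 3: Kcnj16, Kcnj10, Trpv5, Kcne1, Aqp4, Atp2b1, Atp2b2, Atp2b4 and Kcnma1. All but Kcne1 and Atp2b2 stand in the lists for the distal convoluted tubule, connecting tubule or collecting duct. The 9 made up 20.9% of the 43, where 4.16% of all 6585 tested genes at that level showed the same. The mean of cisplatin 1 and 3 was 3.32 times that of cisplatin 4 and 6 for Kcnj16, 3.65 times for Trpv5 and 3.57 times for Aqp4. No gene of the proximal list with a called decrease was among the 9. The reverse, both at over 2 times the higher of cisplatin 1 and 3, held for Aqp8 and for Kcng1, whose counts were at most 4, and for 6.74% of all genes at that level. The 4 marker genes of the connecting tubule summed to 2909 and 3779 CPM in cisplatin 1 and 3 and to 735 and 495 CPM in cisplatin 4 and 6. The same pairs differed in Y-linked counts, so within the treated group sex-linked expression and any other difference between the pairs cannot be told apart.

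**Figure D3:**
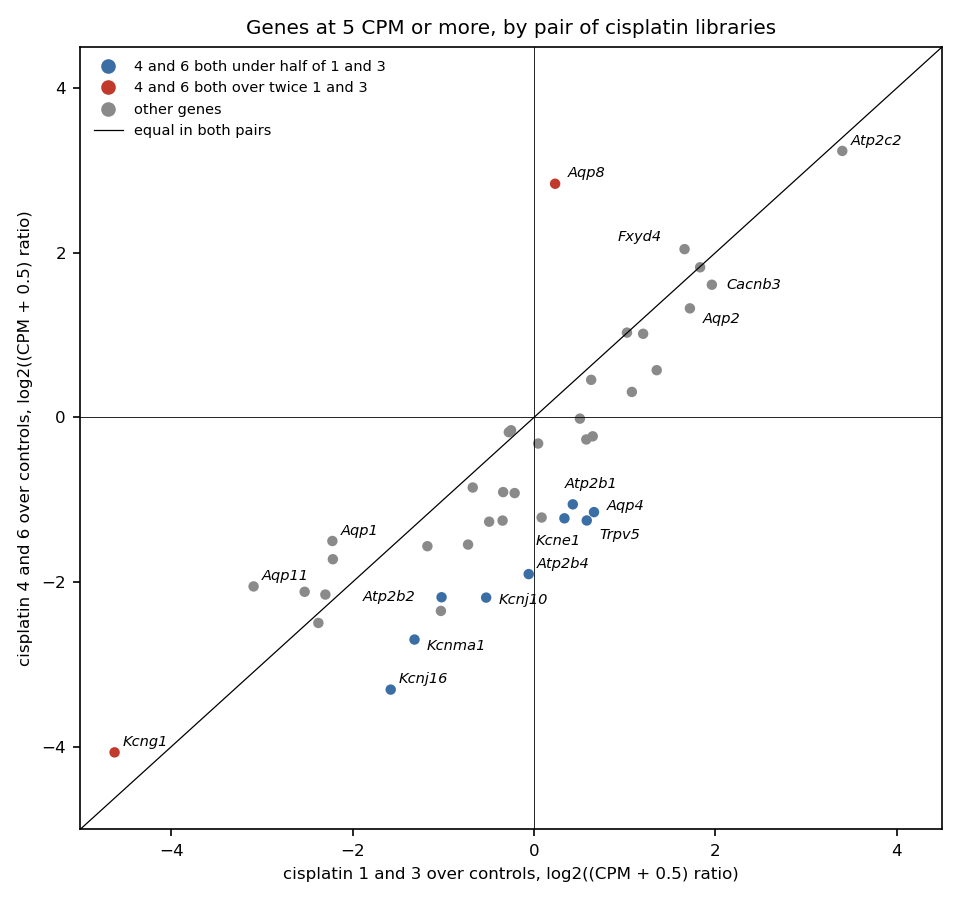
Each point is 1 of 42 genes at 5 CPM or more, placed by its log2 ratio to the control mean in cisplatin 1 and 3 (horizontal) and in cisplatin 4 and 6 (vertical), with 0.5 CPM added to each mean, and the diagonal marks equal ratios. The 9 blue genes lie below the diagonal, Aqp1, Aqp11 and Fxyd4 lie above it, and Aqp2, Cacnb3 and Atp2c2 lie slightly below it.

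Of the 20 ratios computed, 13 did not overlap between the groups, each with an exact permutation p = 0.0286 and an adjusted p = 0.0440. Besides those given above, the ratio of Fxyd2 to 4 thick limb markers rose by 1.46 and that of Trpv5 to 4 connecting tubule markers by 1.27. Both genes were thus higher relative to the mean of these markers after cisplatin than in controls. Among the thick limb markers Egf fell most, with a log2 fold change of -4.77. Umod was at -1.85, Slc12a1 at -1.78 and Ptger3 at -1.34, beside -1.36 for Fxyd2. Fxyd2 itself is listed for the distal convoluted tubule. The 4 thick limb markers included 3 down-regulated genes, the 3 distal convoluted tubule markers 2, the 4 connecting tubule markers 2 and the 4 intercalated cell markers 1. The 7 ratios that overlapped included Kcne1 to Kcnq1 (-0.65, exact permutation p = 0.0857), Fxyd4 to Aqp2 (0.38, exact permutation p = 0.314) and Atp2a3 to Atp2a2 (0.53, exact permutation p = 0.0571).

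**Figure D4:**
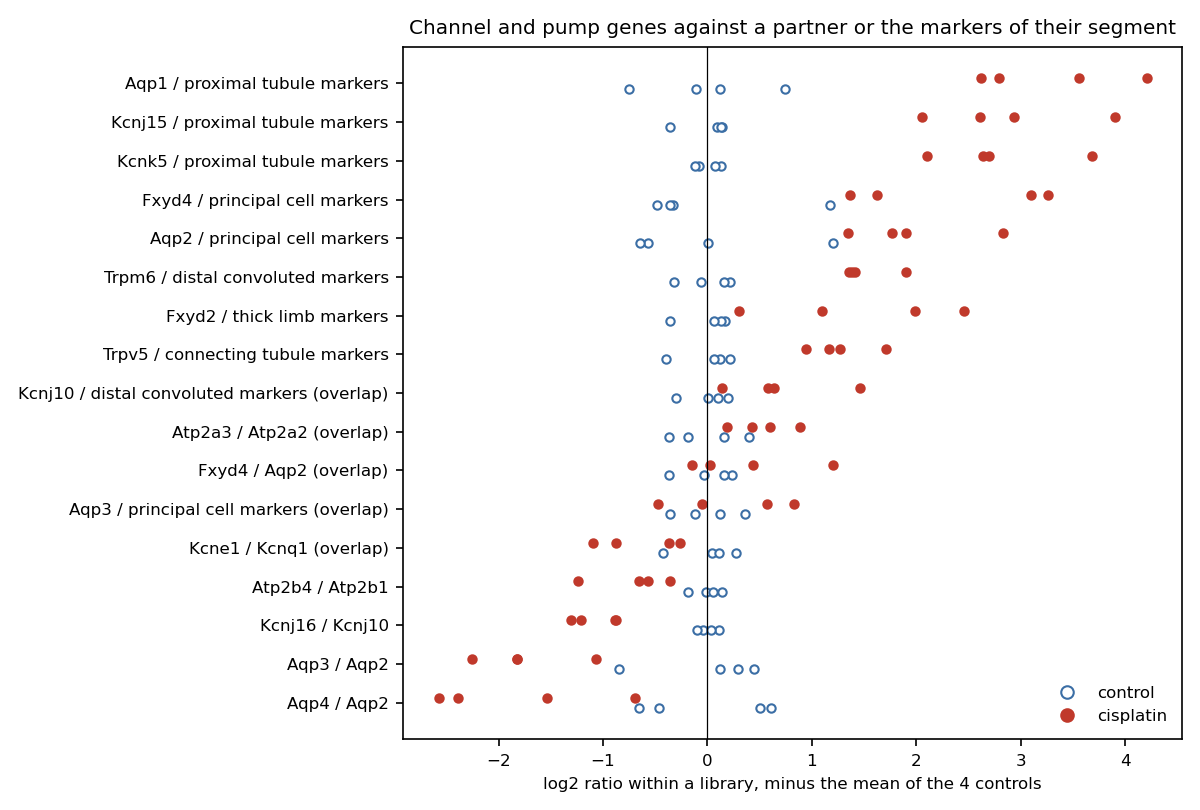
Log2 ratio of a gene to its partner, or to the mean of its segment's markers, in each library (horizontal axis, shifted so that the 4 controls average 0), with open blue circles for controls and filled red circles for cisplatin-treated kidneys. Ratios to proximal tubule markers lie farthest to the right, by 2.78 to 3.29 on average, and Aqp3 and Aqp4 relative to Aqp2 lie farthest to the left, and the 5 of 17 rows marked overlap are those in which the groups share a range.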

How the data were processed

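Kidney RNA was sequenced in 8 libraries, 4 control and 4 cisplatin. Per the labels and the study's methods, the authors trimmed reads with fastp and aligned them with HISAT2, against GRCm38. They deposited unnormalised counts for each gene. The tool, annotation release and strand setting of the counting are not given in the sources used here. The deposited table names 8 count columns, but 17835 of its 53715 rows hold 10 values. Those rows, with 2 unnamed extra columns, were not used, so totals and tests rest on 35880 rows. Gene lengths, used to express levels per kilobase, are as deposited.

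Counts were filtered with filterByExpr, scaled by TMM and tested with the quasi-likelihood test of edgeR 4.0.16 in R 4.3.3, with Benjamini-Hochberg adjustment over the 9141 genes tested. Within-library ratios used log2(CPM + 0.5) and a 2-sided exact permutation test of 4 against 4 libraries. The scripts were tested on simulated data. Alternatives were other scalings, DESeq2 1.42.0, filters, a replicate block, library sets and leaving out libraries. Control 5 with cisplatin 4 and 6 were taken as 1 library set and the other 5 libraries as the first, as they divide on the second principal component. No label gives these sets. In the first set treatment and the difference in Y-linked counts are confounded. The labels do not say that equal replicate numbers mark a shared litter or day.

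Genes of the segment and cell lists, and other called genes, were named, with values per library from a mean of 5 CPM upward in either group. Aqp8, Atp2a3, Fxyd1 and Kcns1 were named after their values had been seen. The genes and lists were chosen with earlier results of these data known. RefSeq promoter windows of GRCm38.p6 were searched on both strands. Some genes of these families are counted in the totals but are not reported here by name.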

Additional observations from a re-analysis of the deposited data

Results flagged for a closer look

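Among the 43 genes with a group mean of at least 5 CPM, 86 groups of 4 libraries were examined for a library far from the other 3, measured as the gap to its nearest neighbour divided by the range of the group, and 8 exceeded Dixon's critical value. Chance alone gives about 1 in 20 groups. In 6 of the 8 the library was control 5. The values were 0.8438 for Aqp2, 0.9626 for Aqp8, 0.9927 for Atp1b1, 0.9469 for Atp2a2, 0.8644 for Fxyd4 and 0.8375 for Trpc4ap. Control 5 was the highest control for Aqp2, Aqp8, Atp2a2 and Fxyd4 and the lowest for Atp1b1, where the other 3 controls lay within 4013 to 4018 CPM. Without control 5, Aqp2 and Fxyd4 were still up-regulated and Aqp8 became so. In the other 2, cisplatin 1 stood apart, with 0.9512 for Kcnk5, where it was the lowest treated library, and 0.8327 for Kcnn1.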

How the results depend on the processing

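Of the 32 called genes, 22 were called in every alternative that tested them, with none reversed, and 10 lost their call in at least 1, among them Atp1b1, Cacna2d2, Fxyd2, Kcnh1, Kcnj10, Kcnn2, Kcnn4, Kcns3 and Kcnt1. Taking each called gene in each alternative as 1 value, 54 of 566 values lost the call. In 21 of these 54 the adjusted p was still below 0.05 and the fold was under 2. The 21 down-regulated genes became 13 with total library size only and 12 where at least 10 counts in every library were required, which left 59 of the 75 genes to test. Of all genes, these fits called 8.78% and 14.2% lower. Leaving out 1 library at a time gave 18 to 22 down-regulated and 10 to 12 up-regulated genes, where 14.7% to 16.6% and 16.9% to 20.1% of all genes were called. DESeq2 gave 22 and 12, where 16.7% and 19.4% of all genes were called. Upper-quartile factors gave 19 and 11, where 14.7% and 20.6% of all genes were called. Of the genes not called with all libraries, Kcnn1 (log2 fold change -1.33) was called without cisplatin 1, Trpv3 (-1.14) without control 5 and Kcnh2 (1.02) without cisplatin 4. Aqp8 was called in 10 alternatives. The 13 ratios whose groups did not overlap were 13 under either other pseudocount, 13 to 16 when 1 library was left out and 17 within the first library set, where fewer libraries leave less room for overlap.

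Controls and cisplatin-treated mice share only the labels 1 and 3. With the replicate block, 15 genes were up-regulated, 10 of them also called without the block. Another 19 were down-regulated, 17 of them also called without the block. Of all genes, that fit called 18.7% higher and 15.4% lower. The correlations of deviations from the group mean were 0.249 for control 1 with cisplatin 1 and 0.279 for control 3 with cisplatin 3. Control 2 correlated better with cisplatin 1 (0.355), while no control correlated better than control 3 with cisplatin 3. Whether equal numbers mark related samples cannot be told from these values. Kcnip3 changed from -0.04 to 1.12 (adjusted p = 0.0240) under the block. Kcnip3 had 3.37 and 0.986 CPM in control 1 and 3, and 5.64 and 3.13 CPM in cisplatin 1 and 3. Control 2, on which the block effect does not rest, had 7.74 CPM. Levels under 3 counts cannot be told from 0 at this depth.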
